A study of Homo sapiens with 27 samples.

Results

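The genes described here encode the subunits of the proteasome, its activators, its inhibitor and its assembly chaperones. They were chosen by name, as the genes of the count file whose symbol is PSM followed by a letter from A to G and a number, without PSMB8 and PSMB9. This rule gave 46 of the 26485 genes in the file. Of these 46 genes, 44 passed the filter on low counts: PSMA8, a testis subunit, had 0 counts in all 12 libraries and PSMB11, a thymic subunit, had at most 1 count in any library. The 46 genes were divided into the alpha ring of the core (8 genes), the beta ring of the core (9), the 19S base (9), the 19S lid (8), the activators with the inhibitor (5) and the assembly chaperones (7).

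RNA was sequenced from T47D, an established luminal breast cancer line with high expression of the transcription factor GATA3. Cells were infected with a pHAGE lentivirus that carried no insert (control) or a truncated GATA3 with a 3xTy1 tag. The truncations were the X308 splice site deletion (Splice del), the C321 frameshift (C321fs) and the A333 frameshift (A333fs). All 4 lines were selected with puromycin as 1 stable pool each, and all kept their own wild-type GATA3. There were 3 RNA libraries per line. Replicates are libraries of 1 pool, so a p-value measures the spread between these libraries, and whatever else set a pool apart enters the comparisons made with that pool. The growth medium in the sample labels differs from that in the study's methods and was not settled.

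The proteasome is the large protease of the cytosol and the nucleus that degrades proteins marked with ubiquitin. Its 20S core is a barrel of outer alpha rings, which form the gate, and inner beta rings, which hold the proteolytic sites. The 19S particle caps the barrel: the ATPases of its base unfold the substrate and push it into the core, and its lid removes the ubiquitin. In most cells the genes of the subunits are known to rise together through NFE2L1, a transcription factor that is itself a proteasome substrate. Breast cancer lines depend on the proteasome as dividing cells in general do.

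The 12 libraries held between 27872208 and 36788024 counted fragments, of which the 46 genes took between 0.714% and 0.798%. The control libraries stood apart from the mutant libraries in composition. Their TMM factors, which rescale library size, lay between 0.884 and 0.943 and those of the mutant libraries between 1.01 and 1.05. The slope of log2 CPM (fragment counts scaled to a common library size by TMM) over 10 percentage points of GC content lay between 0.107 and 0.187 in control and between -0.217 and 0.013 in the mutant libraries. This difference in composition and the mutants cannot be told apart by the design. All 9 luminal markers examined were detected in every library. Their summed level was between 18220 and 21440 CPM in control and between 12060 and 15000 CPM in the mutant libraries. KRT8, the highest of them, had means of 7518 CPM in control and 3697, 4210 and 5337 in Splice del, C321fs and A333fs. The markers did not all go the same way. KRT8, KRT18, KRT19, GATA3, FOXA1 and PGR had lower means in every mutant line, EPCAM had higher ones, and ESR1 and CDH1 were mixed. Some of these differences were small, as for PGR with 1107 CPM in control and 1089 in Splice del, and no test of the markers is given. The paper did not detect a reduction of the progesterone receptor in these lines. Fragments of the introduced GATA3 could also be counted as GATA3. The 12 markers of fibroblasts, leukocytes, endothelium and basal cells summed to between 32.2 and 65.1 CPM, mostly COL1A1, and the leukocyte marker PTPRC was at 0 in every library. The part that these differences have in the results below was not tested. In bulk RNA, fewer cells of a type and less RNA per cell cannot be told apart.

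The mutant lines did not change the proteasome genes as 1 block. PSMB2 to PSMB7 of the beta ring, including the 3 genes of the constitutive proteolytic sites, fell in all 3 lines, while 1, 3 and 5 of the 7 tested alpha ring genes rose in Splice del, C321fs and A333fs. The 19S genes were split, with PSMC3, PSMC4, PSMC5, PSMD2 and PSMD3 lower and PSMC6 higher in every mutant line. A fit described below removed each library's trend over GC content and exon length. In it 0 alpha ring genes rose in any line, while 4 fell in Splice del and 1 in C321fs. PSMC6 then passed in no line, whereas PSMB2 to PSMB7 were still lower in all 3. Against control, edgeR's quasi-likelihood test (adjusted p below 0.01 over 14789 genes) called 3 of the 44 genes higher and 22 lower in Splice del cells, where 18.7% of all tested genes were higher and 22.4% lower. In C321fs cells 5 were higher and 19 lower, beside 16.1% and 20.7% of all genes. In A333fs cells 14 were higher and 17 lower, beside 21% and 26.4% of all genes. The lower members were thus 50.0%, 43.2% and 38.6% of those tested, and the higher ones 6.82%, 11.4% and 31.8%. The number higher in Splice del cells fell to 1 without control replicate 1 or Splice del replicates 1 or 2, and that in C321fs cells was 3 without control replicate 1 or C321fs replicate 2 and 8 without C321fs replicate 1. With the further condition of a fold change over 1.5, 3 genes fell in Splice del cells (PSMB3, PSMB5 and PSMB6), 0 in C321fs and 1 in A333fs cells (PSMG3), beside 4.53%, 2.26% and 6.81% of all genes, and DESeq2 called 5, 0 and 1. The same rule called 0 members higher in any line, by edgeR and by DESeq2, beside 6.21%, 4.63% and 5.46% of all genes. At an unadjusted p below 0.05 and without a limit on the fold change, edgeR had 8, 9 and 17 members higher in the 3 lines. By that rule 24, 22 and 20 were lower, and no share of all genes is given for it. The changes were thus small: the fitted log2 fold changes of the 44 genes ran from -0.67 (PSMB6 in Splice del) to 0.51 (PSMA2 in A333fs). Their median was -0.26 with Splice del, -0.15 with C321fs and -0.061 with A333fs, beside 0.032, 0.021 and 0.0086 over all tested genes.

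The split between higher and lower members depended on the scaling. Upper-quartile factors moved the median of all genes to 0.12, 0.11 and 0.12 for the Splice del, C321fs and A333fs lines, and library size alone moved it to 0.22, 0.19 and 0.16. With upper-quartile factors, 9 members were higher and 19 lower with Splice del, 9 and 15 with C321fs, and 17 and 11 with A333fs. Of all genes, 26.9% were then higher and 16.6% lower with Splice del, 24.7% and 14.2% with C321fs, and 30.3% and 19.4% with A333fs. With library size alone, 13 were higher and 16 lower with Splice del, 16 and 10 with C321fs, and 19 and 10 with A333fs. Of all genes, 35.9% were then higher and 11.6% lower, 32.1% and 9.22%, and 32.4% and 17.5% in the same order. The median of the members was -0.17, -0.064 and 0.051 with upper-quartile factors and -0.069, 0.017 and 0.086 with library size alone, so that it stayed below the median of all genes but changed sign for A333fs under both and for C321fs under the second. Under these scalings and RLE factors, 0 of the 80 calls against control changed direction. Of these calls, 67 remained with upper-quartile factors and 58 with library size alone.

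Across the 4 lines together, 37 of the 44 genes differed in the F-test at an adjusted p below 0.01, beside 56.2% of all tested genes. The 7 that did not pass were PSMD7 and PSMD12 of the lid, the activator genes PSME1 and PSME2, and the chaperone genes PSMG1, PSMG2 and PSMG4. Members outside the 17 that the naming rule selected were singled out after their values had been seen.

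**Figure D1:**
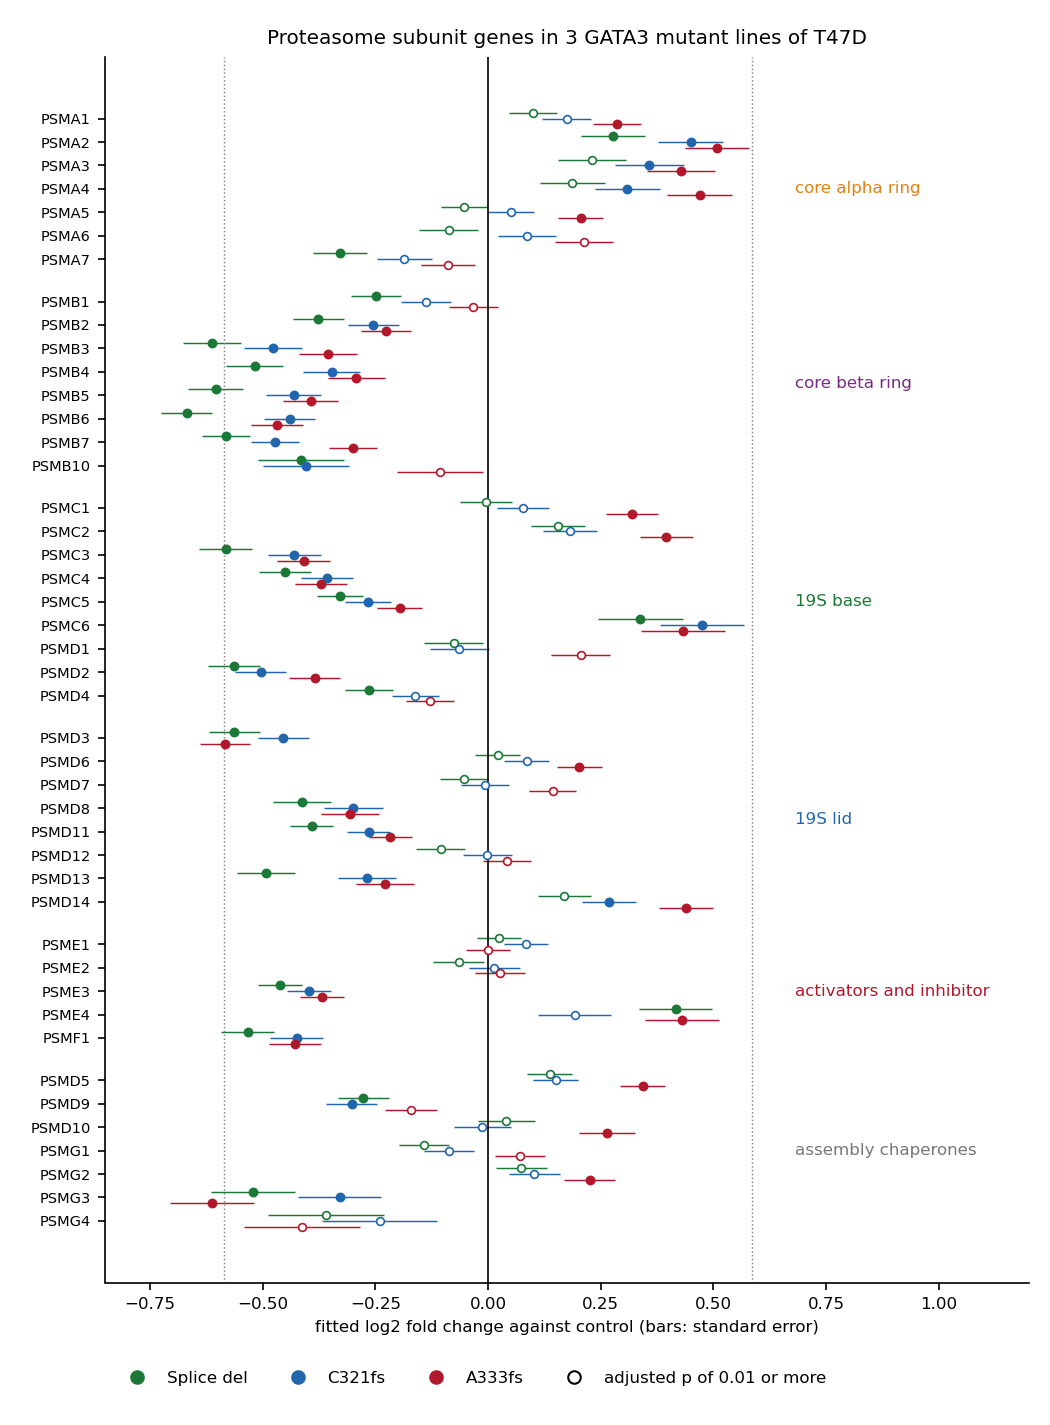
Each row is 1 of the 44 tested genes, grouped by the part of the proteasome it encodes. Points give the fitted log2 fold change of Splice del (green), C321fs (blue) and A333fs (red) against control, bars the standard error, filled points an adjusted p below 0.01, and dotted lines a fold change of 1.5. All 8 beta ring genes lie left of 0 in all 3 lines as fitted (PSMB1 and PSMB10 cross 0 under another scaling in lines where they did not pass), whereas PSMA1 to PSMA4 and PSMC6 lie right of it.

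These differences followed the base composition of the genes. The exons of the 7 tested alpha ring genes had a median GC content of 41.0% (38.2% to 53.9%), those of the 8 tested beta ring genes 51.4% (44.9% to 61.3%), and those of the 44 genes 48.6%. Over the 44 members, Spearman's rho between the log2 fold change and exon GC content was -0.76 with Splice del, -0.77 with C321fs and -0.81 with A333fs. Over all 14789 tested genes it was -0.51, -0.55 and -0.67. These are descriptions across genes that share the same libraries. PSMC6, at 38.0% GC the lowest of the tested members, and PSMD3, at 58.8% the highest of the lid, show the contrast. A stretch of coding sequence from each is given below, from hg38 on the plus strand, with G and C in capitals. The PSMC6 stretch (33.3% G and C) lies in exon 9 of the gene at chr14:52718229-52718348, and the PSMD3 stretch (71.7%) in exon 1 at chr17:39980971-39981090.
PSMC6: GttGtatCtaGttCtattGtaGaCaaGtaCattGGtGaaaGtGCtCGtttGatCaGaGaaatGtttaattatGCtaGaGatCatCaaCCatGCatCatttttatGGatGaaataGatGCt
PSMD3: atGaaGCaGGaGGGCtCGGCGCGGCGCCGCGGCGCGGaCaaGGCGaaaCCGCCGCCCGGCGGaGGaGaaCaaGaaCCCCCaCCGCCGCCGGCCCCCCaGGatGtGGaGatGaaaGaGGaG

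Of the 22 members of lower GC content (38.0% to 48.2%), 3 rose and 3 fell in Splice del cells, 5 rose and 2 fell in C321fs, and 14 rose and 2 fell in A333fs cells. Of the 22 of higher GC content (49.0% to 61.3%), 19, 17 and 15 fell. Every member that edgeR called higher against control was among those of lower GC content. No share of all genes called within these GC ranges is given. Over all tested genes the fold change also went down with GC content (rho -0.51, -0.55 and -0.67), so the split is not particular to the members.

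A fit was made in which each library's own trend over GC content and exon length, estimated on genes outside the list, was removed. It called 0 members higher and 31 lower in Splice del cells, beside 11.7% and 28.7% of all genes. In C321fs cells it called 0 higher and 25 lower, beside 8.91% and 23.5%. In A333fs cells it called 2 higher and 17 lower, beside 9.78% and 21.8%. At an unadjusted p below 0.05, for which no share of all genes is given, 2 members were higher in Splice del and 4 in C321fs cells. The medians of the members were -0.26, -0.20 and -0.095, beside -0.061, -0.054 and -0.053 over all genes. Of the 80 calls against control, 57 remained and 4 turned negative without passing: PSMA1, PSMA5, PSMD10 and PSMG2 in A333fs cells. The alpha ring then had a median log2 fold change of -0.15, -0.029 and 0.044 in the 3 lines, and the beta ring of -0.55, -0.39 and -0.31. Without the removal these medians were 0.099, 0.17 and 0.29 for the alpha ring and -0.55, -0.42 and -0.30 for the beta ring. Within the beta ring single genes moved: PSMB6 went from -0.67, -0.44 and -0.47 to -0.56, -0.36 and -0.37, and PSMB3 in A333fs cells from -0.35 to -0.26.

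**Figure D2:**
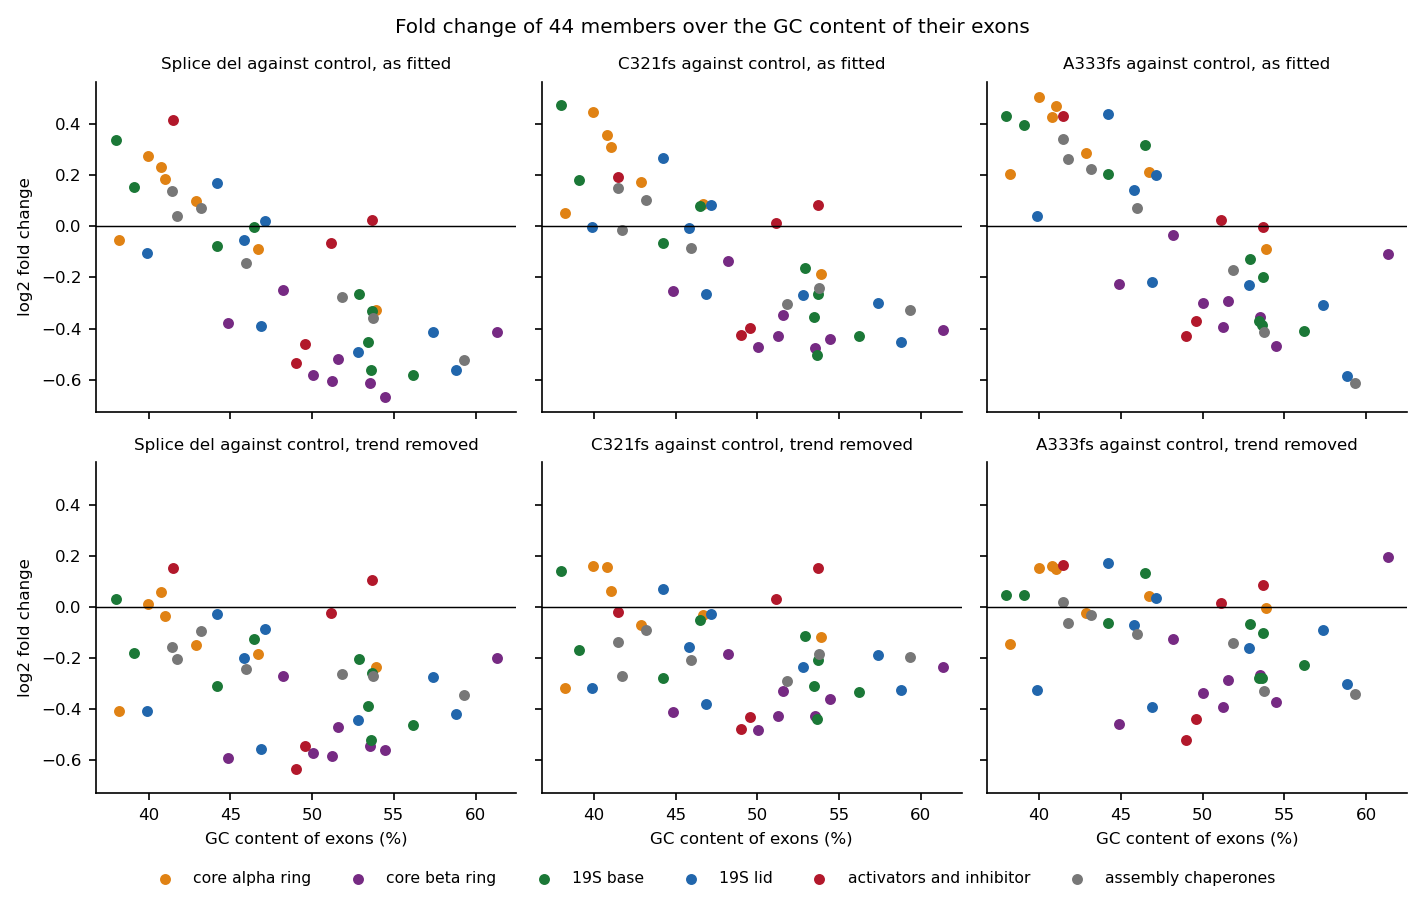
Each point is 1 of the 44 tested genes, with the GC content of its exons (%) on the x axis and its log2 fold change against control on the y axis, coloured by class, for each mutant line as fitted (top) and with the GC and length trend of each library removed (bottom). In the top row the points run from above 0 at low GC content to below 0 at high GC content (rho -0.76, -0.77 and -0.81). In the bottom row the relation is weaker (rho -0.42, -0.37 and -0.38) and most beta ring genes stay below 0.

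The proteolytic sites of the core are in 3 beta subunits. PSMB5 (chr14:23025851-23035220 of hg38) encodes the subunit with the chymotrypsin-like site. The level of PSMB5 was 137, 150.0 and 132 CPM in the control libraries, 91.0, 90.7 and 94.1 with Splice del, 111, 103 and 96.4 with C321fs and 108, 104 and 106 with A333fs. Each of the 9 mutant libraries was below every control library. The log2 fold change was -0.60 (standard error 0.061, adjusted p = 1.43e-06) with Splice del, -0.43 (standard error 0.061, adjusted p = 4.97e-05) with C321fs and -0.39 (standard error 0.061, adjusted p = 5.08e-05) with A333fs. PSMB6 (chr17:4796144-4798503) encodes the caspase-like subunit. The level of PSMB6 was 153, 170.2 and 155 CPM in the control libraries, 98.5, 99.8 and 102 with Splice del, 125, 117 and 110.2 with C321fs and 116, 114 and 115 with A333fs. Its control libraries were again the highest. The change was -0.67 (standard error 0.058, adjusted p = 3.11e-07), -0.44 (standard error 0.057, adjusted p = 2.62e-05) and -0.47 (standard error 0.057, adjusted p = 6.29e-06) in the same order, and PSMB6 fell by 37.1% in Splice del cells, more than any other member. PSMB7 (chr9:124353465-124415473) encodes the trypsin-like subunit. The level of PSMB7 was 228, 234 and 208 CPM in the control libraries, 147, 149 and 152 with Splice del, 162, 167 and 154 with C321fs and 182, 183 and 179.8 with A333fs. The control libraries were again the 3 highest. PSMB7 changed by -0.58 (standard error 0.053, adjusted p = 5.87e-07), -0.47 (standard error 0.053, adjusted p = 7.7e-06) and -0.30 (standard error 0.053, adjusted p = 0.000172). Counting ignored the strand, and 389 bases of the PSMB7 exons overlap LOC100129034 on the other strand. Using library size alone, the fall of PSMB7 in A333fs cells did not pass (adjusted p = 0.0144).

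PSMB10 (chr16:67934504-67936877) encodes an interferon-inducible subunit that takes the place of PSMB7 in immunoproteasomes. The level of PSMB10 was 18.4, 21.3 and 18.8 CPM in the control libraries, 14.3, 14.4 and 15.2 with Splice del, 17.1, 13.6 and 13.4 with C321fs and 18.98, 16.5 and 18.8 with A333fs. It stood lower in Splice del and C321fs than in control, without overlap, and overlapped control in A333fs cells. Its log2 fold change was -0.41 (standard error 0.096, adjusted p = 0.00182) in Splice del, -0.40 (standard error 0.096, adjusted p = 0.0027) in C321fs and -0.11 (standard error 0.095, adjusted p = 0.349) in A333fs cells, where the direction turned under upper-quartile factors, library size alone and the removal of the GC trend. PSMB10 had the highest GC content of the tested members (61.3%), and with the trend removed its change in Splice del cells did not pass (-0.20, adjusted p = 0.0151). With library size alone it passed in neither Splice del (-0.23, adjusted p = 0.0364) nor C321fs cells (-0.24, adjusted p = 0.0334). The call in Splice del cells was also lost without control replicate 2 (adjusted p = 0.0141) or Splice del replicate 1 (0.01), and that in C321fs cells without control replicate 2 (0.0192) or C321fs replicate 2 (0.0184) or 3 (0.0148). The other inducible catalytic genes, PSMB8 and PSMB9, are not members. Their log2 fold changes were 0.54, 0.17 and 0.42 for PSMB8 and 0.47, 0.44 and 0.30 for PSMB9 in Splice del, C321fs and A333fs cells, of which PSMB8 in C321fs cells did not pass (adjusted p = 0.073).

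PSMB3 (chr17:38752713-38764231) encodes a beta subunit without proteolytic activity. The level of PSMB3 was 264, 284 and 252 CPM in the control libraries, 166, 172 and 185 with Splice del, 204, 191 and 179.9 with C321fs and 218, 199 and 209 with A333fs. The mutant libraries were all below control, and those of Splice del were lowest on average. PSMB3 changed by -0.61 (standard error 0.064, adjusted p = 1.98e-06), -0.48 (standard error 0.064, adjusted p = 3.29e-05) and -0.35 (standard error 0.064, adjusted p = 0.000204). The gene is also annotated on an alternate contig of chromosome 17, so that its fragments can map to more than 1 place. PSMB2 and PSMB4, structural subunits of the same ring, also fell in all 3 lines, by 0.38, 0.25 and 0.23 (PSMB2) and by 0.52, 0.35 and 0.29 (PSMB4) on the log2 scale. PSMB1 fell in Splice del cells (-0.25) and did not pass in C321fs (-0.14, adjusted p = 0.0474) and A333fs cells (-0.033, adjusted p = 0.632). In all, 8 of the 8 tested beta ring genes fell with Splice del, 7 with C321fs and 6 with A333fs, beside 22.4%, 20.7% and 26.4% of all genes. The medians of the ring were -0.55, -0.42 and -0.30. With upper-quartile factors the counts were 7, 6 and 4, and with library size alone 6, 4 and 3.

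As fitted, the alpha ring did not follow the beta ring, although 1 of its genes rose and 1 fell in Splice del cells. With the GC and length trend removed, 0 of its genes rose in any line and 4 fell in Splice del cells. PSMA2 (chr7:42916861-42932206) encodes 1 of its 7 subunits. The level of PSMA2 was 159, 181 and 182 CPM in the control libraries, 207, 217 and 209 with Splice del, 261, 237 and 215 with C321fs and 248, 261 and 234 with A333fs. Every mutant library was above every control library, and C321fs overlapped both other mutant lines. PSMA2 rose by 0.28 (standard error 0.071, adjusted p = 0.00404), 0.45 (standard error 0.071, adjusted p = 0.000129) and 0.51 (standard error 0.071, adjusted p = 2.21e-05) on the log2 scale for the 3 lines in the same order. The call in Splice del cells was lost without control replicate 1 (adjusted p = 0.0278) or Splice del replicate 1 (0.0109), 2 (0.0216) or 3 (0.01), so that it rested on having all 3 libraries of that line. With the GC and length trend removed the values were 0.012, 0.16 and 0.15 and did not pass (adjusted p = 0.859, 0.0122 and 0.0162). PSMA4 (chr15:78540405-78549221) encodes a neighbour in the ring. The level of PSMA4 was 157, 194 and 188 CPM in the control libraries, 205, 205 and 202 with Splice del, 228, 229 and 210.2 with C321fs and 244, 266 and 235 with A333fs. The lowest mutant library (202 CPM) was above the highest control library (194 CPM). Its log2 fold change was 0.19 (standard error 0.072, adjusted p = 0.0384), 0.31 (standard error 0.072, adjusted p = 0.00233) and 0.47 (standard error 0.072, adjusted p = 4.78e-05), of which the first did not pass, and with the trend removed it was -0.034, 0.064 and 0.15 and did not pass in any line (adjusted p = 0.613, 0.339 and 0.0232). In Splice del cells PSMA4 passed with upper-quartile factors (0.28, adjusted p = 0.00126), with library size alone (0.38, adjusted p = 0.000114) and in the fit of the 2 lines alone (adjusted p = 0.00361). In C321fs cells it did not pass without control replicate 1 (adjusted p = 0.0117) or C321fs replicate 2 (0.0136).

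Of the 7 tested alpha ring genes, 1 rose in Splice del (PSMA2), 3 in C321fs (PSMA2, PSMA3 and PSMA4) and 5 in A333fs cells (PSMA1 to PSMA5). Beside these stand 18.7%, 16.1% and 21% of all tested genes. With upper-quartile factors 4, 4 and 6 rose, and with library size alone 4, 6 and 6. With the trend removed the rises did not pass, and the genes called were 4 lower in Splice del and 1 lower in C321fs cells. As fitted, PSMA7 was the only one that fell, by 0.33 on the log2 scale in Splice del cells. PSMA7 also had the highest exon GC content of the ring, 53.9%. PSMA6 passed in no line against control, although in A333fs cells it was close (0.21, adjusted p = 0.0101). The medians of the ring were 0.099, 0.17 and 0.29.

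Per length, the alpha and beta genes were nearer to each other in the mutant lines than in control. The summed level of PSMA1 to PSMA7 was 1088 ± 31.0 FPKM (the scaled CPM per kilobase of exon; SD, n = 3) in control, 1060 ± 8.39 with Splice del, 1171 ± 92.1 with C321fs and 1260 ± 30.2 with A333fs. That of PSMB1 to PSMB7 was 1444 ± 79.6 in control, 1000 ± 30.0 with Splice del, 1110 ± 71.1 with C321fs and 1177 ± 20.8 with A333fs. The ratio of the first sum to the second was 0.739, 0.731 and 0.792 in control, whereas all 9 mutant libraries had ratios from 1.02 to 1.11. This ratio does not depend on the scaling of a library, but it moves with GC content as given above. In control the highest levels of single members were 412 FPKM for PSMA7, 387 for PSMB4, 370 for PSMD2 and 335 for PSMB3, and the lowest of the 44 tested members were 14.8 for PSME4, 17.9 for PSMG4 and 19.4 for PSMB10.

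**Figure D3:**
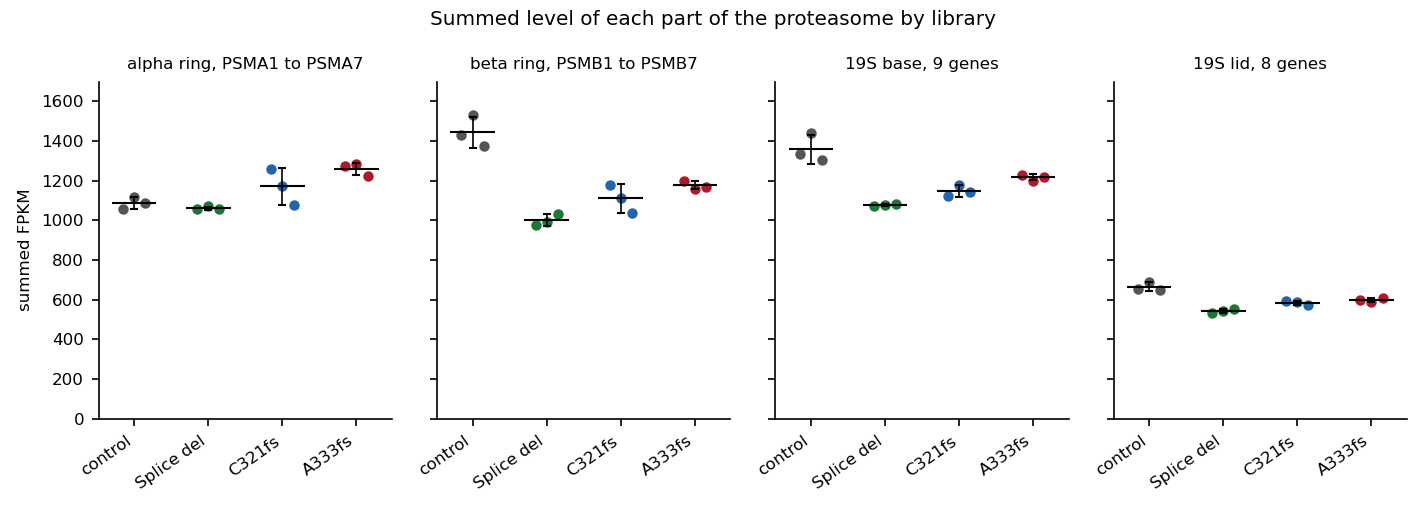
The summed level in FPKM of 4 parts of the proteasome in each of the 12 libraries, with the line mean (horizontal bar) and SD (n = 3). The beta ring sums of control (1373 to 1530 FPKM) lie above all mutant sums (976 to 1200 FPKM), whereas the alpha ring sums of control (1057 to 1119 FPKM) lie within the range of the mutant sums (1055 to 1283 FPKM).

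The base of the 19S particle holds a ring of 6 ATPases, PSMC1 to PSMC6. PSMC3 (chr11:47418769-47426473) encodes an ATPase with a tail that docks into the alpha ring. The level of PSMC3 was 428, 467 and 396 CPM in the control libraries, 287, 289 and 286 with Splice del, 318, 328 and 312 with C321fs and 340.2, 309 and 322 with A333fs. No mutant library reached the lowest control library. PSMC3 changed by -0.58 (standard error 0.059, adjusted p = 1.52e-06), -0.43 (standard error 0.059, adjusted p = 3.97e-05) and -0.41 (standard error 0.059, adjusted p = 2.75e-05) in Splice del, C321fs and A333fs cells. PSMC6 (chr14:52707178-52727998), whose low GC content was shown above, moved the other way. The level of PSMC6 was 100.01, 118 and 124 CPM in the control libraries, 149, 151 and 133 with Splice del, 168, 159 and 148 with C321fs and 145, 178 and 139 with A333fs. The mutant libraries were above the control libraries in all cases, with a spread in A333fs that is wider than in the other lines. PSMC6 rose by 0.34 (standard error 0.094, adjusted p = 0.00638), 0.48 (standard error 0.094, adjusted p = 0.000698) and 0.43 (standard error 0.094, adjusted p = 0.000928). With the GC and length trend removed the values were 0.030, 0.14 and 0.048 and did not pass (adjusted p = 0.659, 0.0331 and 0.491), while PSMC3 still fell (-0.46, -0.33 and -0.23). The call in Splice del cells was lost without control replicate 1 (adjusted p = 0.0426), control replicate 2 (0.0143), Splice del replicate 1 (0.0281), Splice del replicate 2 (0.0304) or C321fs replicate 2 (0.0102).

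Of the 6 ATPases, PSMC3, PSMC4 and PSMC5 fell in all 3 lines. PSMC4 fell by 0.45, 0.36 and 0.37 on the log2 scale and PSMC5 by 0.33, 0.27 and 0.20. The exons of PSMC5 overlap those of FTSJ3 by 105 bases on the other strand. PSMC1 and PSMC2 passed in A333fs cells alone, with increases of 0.32 and 0.40. For PSMC1, which has 13 annotated pseudogenes, the counting could place fragments elsewhere. As fitted, the ring had members called in both directions in every line. With the trend removed it did not: 4, 3 and 2 ATPase genes were lower in the 3 lines, and the rises of PSMC1 (0.13, adjusted p = 0.044) and PSMC2 (0.046, adjusted p = 0.489) in A333fs cells did not pass, as those of PSMC6 did not.

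PSMD2 (chr3:184299098-184309054) encodes the large scaffold of the base to which shuttle factors and the deubiquitinase USP14 bind. It was the most counted member in all libraries. The level of PSMD2 was 1138, 1257 and 1116 CPM in the control libraries, 787, 779 and 809 with Splice del, 782, 837 and 855 with C321fs and 888, 870.1 and 931 with A333fs. The lowest control library was above the highest mutant library. PSMD2 changed by -0.56 (standard error 0.057, adjusted p = 1.52e-06), -0.50 (standard error 0.057, adjusted p = 8.27e-06) and -0.38 (standard error 0.057, adjusted p = 3.57e-05). PSMD4, a ubiquitin receptor, fell in Splice del cells (-0.26), and PSMD1, the other scaffold, did not pass in any line (-0.077, -0.064 and 0.21). Of the 9 base genes, 1 rose and 5 fell in Splice del, 1 rose and 4 fell in C321fs, and 3 rose and 4 fell in A333fs cells. Over all tested genes, 18.7%, 16.1% and 21% rose and 22.4%, 20.7% and 26.4% fell in the same order. The numbers of base genes that fell were 4, 3 and 3 with upper-quartile factors and 3, 3 and 3 with library size alone. The summed level of the 9 genes was 1359 ± 73.5 FPKM in control, 1078 ± 5.51 with Splice del, 1147 ± 29.5 with C321fs and 1217 ± 14.8 with A333fs (SD, n = 3).

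**Figure D4:**
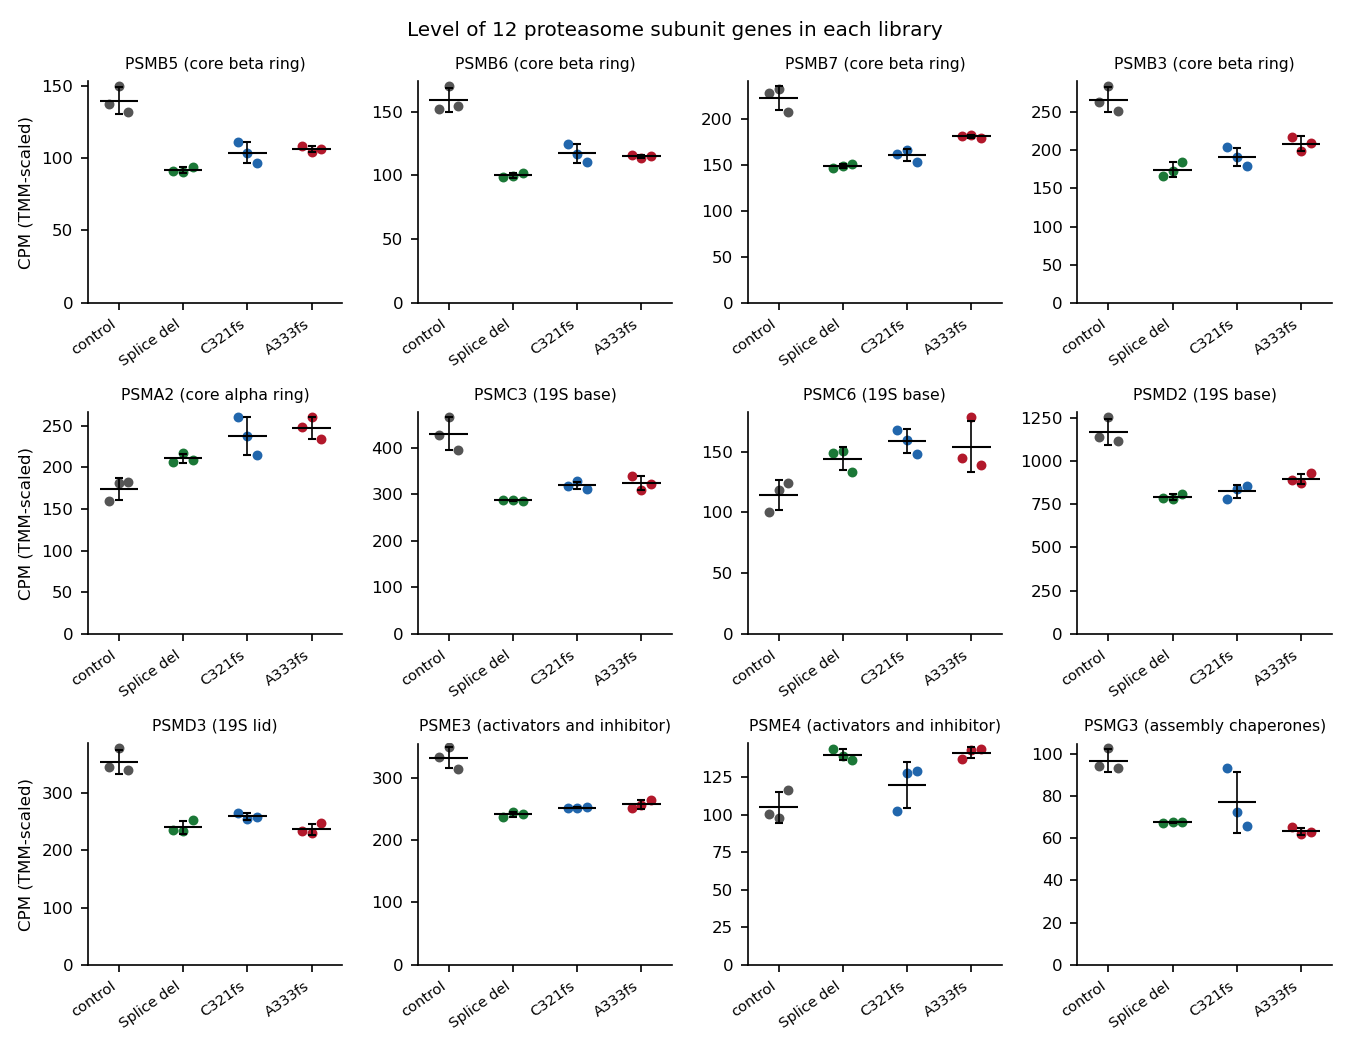
The level (CPM, scaled by TMM) of 12 proteasome genes in each library of the 4 lines, with the line mean (horizontal bar) and SD (n = 3), on axes that start at 0. Control libraries (grey) are the highest for PSMB3, PSMB5, PSMB6, PSMB7, PSMC3, PSMD2, PSMD3, PSME3 and PSMG3 and the lowest for PSMA2 and PSMC6, whereas for PSME4 the C321fs libraries overlap control.

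The lid is a horseshoe of scaffold subunits around PSMD14, the enzyme that cuts ubiquitin from the substrate. PSMD3 (chr17:39980768-39997960), a scaffold subunit, had the lowest adjusted p of the lid. The level of PSMD3 was 347, 379 and 339.7 CPM in the control libraries, 235, 233 and 254 with Splice del, 265, 254 and 258 with C321fs and 233, 229.9 and 248 with A333fs. Mutant libraries were all below control, with A333fs and Splice del at about the same level. PSMD3 changed by -0.56 (standard error 0.056, adjusted p = 1.3e-06), -0.45 (standard error 0.056, adjusted p = 1.63e-05) and -0.58 (standard error 0.056, adjusted p = 7.2e-07), and with the trend removed by -0.42, -0.33 and -0.30. PSMD11 (chr17:32444463-32483319), a scaffold subunit that ties the lid to the core, fell as well. The level of PSMD11 was 216, 228 and 218 CPM in the control libraries, 164, 169 and 172 with Splice del, 184, 185 and 183 with C321fs and 188, 185 and 197 with A333fs. No mutant library reached control. PSMD11 changed by -0.39 (standard error 0.047, adjusted p = 7.37e-06), -0.26 (standard error 0.047, adjusted p = 0.000328) and -0.22 (standard error 0.047, adjusted p = 0.000978). Its exons are of lower GC content (46.9%), and with the trend removed the falls were larger (-0.55, -0.38 and -0.39). The fall in A333fs cells did not pass with upper-quartile factors (-0.11, adjusted p = 0.071), with library size alone (-0.070, adjusted p = 0.183) or without A333fs replicate 2 (adjusted p = 0.0293). That in C321fs cells did not pass with library size alone (-0.098, adjusted p = 0.0726).

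PSMD8 and PSMD13 also fell in all 3 lines. Thus 4 of the 8 lid genes fell in each line, beside 22.4%, 20.7% and 26.4% of all tested genes. The counts for Splice del, C321fs and A333fs were 4, 3 and 1 with upper-quartile factors, 4, 1 and 1 with library size alone, and 6, 5 and 4 with the trend removed. PSMD14 rose in C321fs (0.27) and A333fs cells (0.44) and did not pass in Splice del cells (0.17, adjusted p = 0.0247). PSMD6 rose in A333fs cells alone (0.20). PSMD7 and PSMD12 passed in no line, and with the trend removed PSMD12 was lower in all 3 (-0.41, -0.32 and -0.32). The summed level of the lid genes was 665 ± 22.7 FPKM in control, 542 ± 10.8 with Splice del, 584 ± 9.59 with C321fs and 599 ± 11.2 with A333fs (SD, n = 3).

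Activators open the core without the 19S particle. PSME1 and PSME2, the subunits of the interferon-inducible PA28 ring, did not pass in any line. PSME1 was at 122 ± 3.91 CPM in control, 124 ± 2.32 with Splice del, 129 ± 1.12 with C321fs and 122 ± 4.67 with A333fs, and PSME2 at 80.8 ± 4.32, 77.2 ± 2.66, 81.6 ± 2.51 and 82.3 ± 2.89 CPM (SD, n = 3). Their log2 fold changes had standard errors of 0.049 and 0.056. PSME3 (chr17:42833142-42843760) encodes the nuclear PA28 gamma, which is built without them. The level of PSME3 was 332.95, 349 and 315 CPM in the control libraries, 237, 245 and 241 with Splice del, 252, 252 and 253 with C321fs and 251, 256 and 265 with A333fs. The mutant lines lay within a narrow range and below control. PSME3 changed by -0.46 (standard error 0.049, adjusted p = 2.45e-06), -0.40 (standard error 0.049, adjusted p = 1.73e-05) and -0.37 (standard error 0.049, adjusted p = 1.42e-05). PSMF1 (chr20:1113263-1167782) encodes PI31, known as an inhibitor of the core in the test tube and an adaptor for its transport. The level of PSMF1 was 204, 227 and 202 CPM in the control libraries, 139, 143 and 155 with Splice del, 151, 159 and 162 with C321fs and 158, 156 and 157 with A333fs. Its mutant libraries were also below all control libraries. PSMF1 changed by -0.53 (standard error 0.058, adjusted p = 2.8e-06), -0.42 (standard error 0.058, adjusted p = 3.8e-05) and -0.43 (standard error 0.058, adjusted p = 1.58e-05), and with the trend removed by -0.63, -0.48 and -0.52.

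PSME4 (chr2:53864067-53970840) encodes PA200, a nuclear cap made of a single chain. The level of PSME4 was 100.5, 97.8 and 117 CPM in the control libraries, 144, 139 and 137 with Splice del, 103, 128 and 129.5 with C321fs and 137, 143 and 144 with A333fs. Splice del and A333fs libraries were above control, while C321fs replicate 1 lay among the control libraries. PSME4 changed by 0.42 (standard error 0.081, adjusted p = 0.000493), 0.19 (standard error 0.082, adjusted p = 0.0598) and 0.43 (standard error 0.081, adjusted p = 0.000309), of which the second did not pass. It passed without C321fs replicate 1 (adjusted p = 0.00121), with upper-quartile factors (0.28, adjusted p = 0.0083) and with library size alone (0.36, adjusted p = 0.00263). PSME4 is a low GC gene (41.5%), and with the trend removed it passed in A333fs cells alone (0.16, adjusted p = 0.00945), beside 0.15 in Splice del (adjusted p = 0.0117) and -0.020 in C321fs cells (adjusted p = 0.771).

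The chaperones build the particles and are not part of the finished complex. PSMG3 (chr7:1567334-1570032) acts in the assembly of the alpha ring. The level of PSMG3 was 94.3, 103 and 93.4 CPM in the control libraries, 67.2, 67.5 and 67.8 with Splice del, 93.2, 72.4 and 65.6 with C321fs and 65.2, 62.0 and 62.9 with A333fs. Splice del and A333fs libraries were far below control, whereas C321fs replicate 1 nearly reached the lowest control library. PSMG3 changed by -0.52 (standard error 0.093, adjusted p = 0.000222), -0.33 (standard error 0.092, adjusted p = 0.00765) and -0.61 (standard error 0.093, adjusted p = 4.34e-05). In C321fs cells the call rested on few libraries: adjusted p lay between 0.0103 and 0.0418 without any 1 of control replicates 1, 2 or 3, Splice del replicates 1, 2 or 3, or C321fs replicates 2 or 3. It also did not pass with upper-quartile factors (-0.24, adjusted p = 0.026), with library size alone (-0.16, adjusted p = 0.112), with at least 10 counts required in every library (-0.31, adjusted p = 0.011) or in a fit of the 2 lines alone (-0.32, adjusted p = 0.0102). PSMD5 (chr9:120816054-120843021) holds an ATPase of the base until the base is assembled. The level of PSMD5 was 86.6, 81.5 and 87.9 CPM in the control libraries, 92.9, 96.3 and 92.1 with Splice del, 92.1, 96.8 and 95.1 with C321fs and 109, 108 and 107 with A333fs. Mutant libraries were above control, and A333fs libraries were above the other mutant lines. PSMD5 changed by 0.14 (standard error 0.05, adjusted p = 0.03), 0.15 (standard error 0.05, adjusted p = 0.0199) and 0.34 (standard error 0.05, adjusted p = 2.92e-05), of which the last passed. With the trend removed it was -0.16 in Splice del (adjusted p = 0.00572), -0.14 in C321fs (adjusted p = 0.0167) and 0.020 in A333fs cells (adjusted p = 0.749).

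Of the 7 chaperone genes, 2 fell in both Splice del and C321fs cells (PSMD9 and PSMG3), beside 22.4% and 20.7% of all tested genes. In A333fs cells PSMD5, PSMD10 and PSMG2 rose and PSMG3 fell, where 21% of all tested genes rose and 26.4% fell. PSMG1 and PSMG4 passed in no line. PSMG4 had the largest standard errors of the tested members (0.13), and like PSMG3 it was higher in C321fs replicate 1 (20.6 CPM) than in the other C321fs libraries (13.5 and 13.2 CPM).

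In all 3 mutant lines, 17 of the 44 genes were lower than control and 2 (PSMA2 and PSMC6) were higher, beside 14.7% and 8.93% of all tested genes. The 3 comparisons share the control libraries. The 17 genes were PSMB2 to PSMB7, PSMC3, PSMC4, PSMC5, PSMD2, PSMD3, PSMD8, PSMD11, PSMD13, PSME3, PSMF1 and PSMG3. All 17 stayed negative in all 3 lines under RLE factors, upper-quartile factors and library size alone, and 10 passed in all 3 with upper-quartile factors and 9 with library size alone. With the GC and length trend removed 15 passed in all 3 lines, without PSMC5 and PSMD8. No member called in 1 mutant line was called in the opposite direction in another. For this no share of all genes is given, so it cannot be read as particular to the members. A further 8 genes passed in none: PSMA6, PSMD1, PSMD7, PSMD12, PSME1, PSME2, PSMG1 and PSMG4.

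The mutant lines were then compared with one another, where control enters only through the gene filter, the TMM factors and the shared spread. Between Splice del and C321fs, edgeR called 0 of the 44 genes in either direction, beside 4.18% of all genes higher in Splice del and 2.14% lower. At an unadjusted p below 0.05, 1 was higher and 10 were lower, and DESeq2 called 1 lower. The median difference was -0.10, with PSMB6 at the low end (-0.23). Against C321fs, A333fs cells had 4 genes higher and 0 lower, beside 6.8% and 8.89% of all genes. Here 16 were higher and 2 lower at an unadjusted p below 0.05, and DESeq2 called 7 higher and 0 lower. Against Splice del, A333fs cells had 11 genes higher and 0 lower, beside 4.63% and 7.29% of all genes. At an unadjusted p below 0.05, 32 were higher and 0 lower, and DESeq2 called 24 higher and 0 lower. The shares of all genes given here are those of edgeR at an adjusted p below 0.01. None is given for the unadjusted or the DESeq2 counts, which cannot be read against these shares. The median difference between A333fs and Splice del was 0.19 over the members and -0.020 over all genes.

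The 4 genes above C321fs were PSMC1 (0.24), PSMD1 (0.27), PSMD5 (0.19) and PSMD10 (0.28), of the base or its chaperones. Those above Splice del came from every part but the activators: PSMA5, PSMA6 and PSMA7, PSMB3 and PSMB7, PSMC1, PSMC2 and PSMD1, PSMD13 and PSMD14, and PSMD5. Their log2 differences lay between 0.21 (PSMD5) and 0.32 (PSMC1). These differences did not follow GC content as closely as those against control. The rho over the 44 members was -0.28 against Splice del and -0.46 against C321fs, beside -0.31 and -0.30 over all tested genes. With the GC and length trend removed, 3 members were lower in Splice del than in C321fs, 7 were higher in A333fs than in C321fs and 19 higher in A333fs than in Splice del, beside 6.44%, 11.3% and 11.1% of all genes. In that fit, 6 of the 8 tested beta ring genes were higher in A333fs than in Splice del. The numbers called depended on single libraries. Between A333fs and Splice del they were 1, 4 and 2 without Splice del replicates 1, 2 and 3, 24 and 7 without C321fs replicates 1 and 2, and 2 and 3 without A333fs replicates 1 and 3. Between A333fs and C321fs they were 2 without Splice del replicate 1 or 2, 1 without C321fs replicate 3 and 0 without A333fs replicate 1 or 3.

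**Figure D5:**
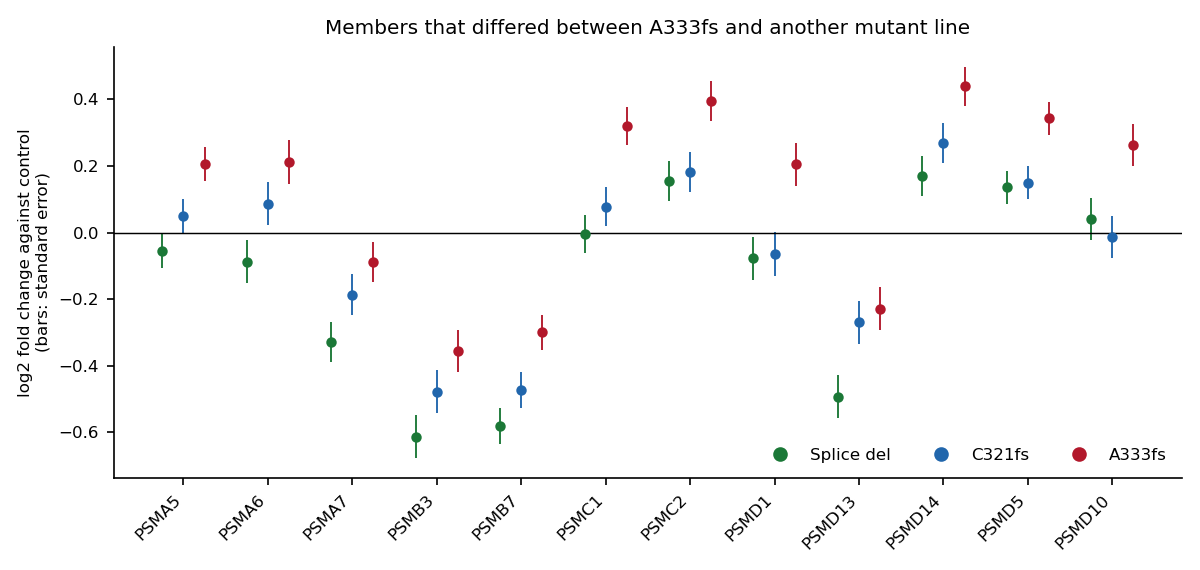
The log2 fold change against control (y axis; bars, standard error) of the 12 genes that differed between A333fs and at least 1 other mutant line, for Splice del (green), C321fs (blue) and A333fs (red). For all 12 the A333fs point is the highest, including PSMA7, PSMB3, PSMB7 and PSMD13, which lie below 0 in all 3 lines as fitted (PSMA7 in A333fs cells turns positive with upper-quartile factors and with library size alone). The genes were chosen by these calls, all of which were higher in A333fs. That A333fs lies above the line it was called against therefore follows from the choice.

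The promoters of the members were read for motifs from RefSeq (GRCh38.p14), as the 250 bases before and the 50 after each gene's start. Of the 46 members 40 had an entry, and PSMA7, PSMB1, PSMB6, PSMB7, PSMD4 and PSMG3 had none. Both strands were searched. TGACNNNGC, the core of the antioxidant response element that NFE2L1 and NFE2L2 bind, was in 12 of the 40 windows (30.0%), beside 13.6% of all 27305 windows and 15.2% of those of tested genes. The ETS core CCGGAAG was in 13 (32.5%, beside 10.7% of all and 18.4% of tested genes), CCAAT in 18 (beside 35.7% and 36.6%), and the longer motif of the factor NRF1 in 5 (12.5%, beside 6.29% and 11.2%). The GATA motif, searched as GATA with A or T before it and A or G after it, was in 4 windows (PSMA6, PSMB3, PSMC1 and PSMC6; 10.0%, beside 25.5% and 14.7%). The 12 members with the response element core were PSMB3, PSMC4, PSMD1, PSMD3, PSMD12, PSME1, PSME2, PSME4, PSMD5, PSMD9, PSMG1 and PSMG2. As fitted, these genes went in both directions or did not pass. PSMB3, PSMC4 and PSMD3 fell in all 3 lines, and PSMD9 fell in Splice del and C321fs cells. PSMD5 and PSMG2 rose in A333fs cells, and PSME4 in Splice del and A333fs cells. The others, PSMD1, PSMD12, PSME1, PSME2 and PSMG1, passed in no line. With the GC and length trend removed, neither PSMD5 (0.020, adjusted p = 0.749 by edgeR) nor PSMG2 passed in A333fs cells, and PSME4 was at 0.16 there. The windows around the core in PSMB3, PSMD5 and PSME4 are printed below. They do not show a direction of expression. The 59 bases are on the strand of the gene with the core, or its reverse complement in PSME4, in capitals. The core starts 104 bases before the start in PSMB3 (chr17:38752612-38752670, plus strand), 134 in PSMD5 (chr9:120843023-120843081, minus strand) and 34 in PSME4 (chr2:53970994-53971052, minus strand).
PSMB3: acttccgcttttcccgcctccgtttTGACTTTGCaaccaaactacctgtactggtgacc
PSMD5: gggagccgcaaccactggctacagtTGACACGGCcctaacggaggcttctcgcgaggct
PSME4: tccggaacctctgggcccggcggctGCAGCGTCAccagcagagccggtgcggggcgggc

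A list of 29 other genes of the pathway (regulators, subunits with another symbol, bound factors, shuttles, ubiquitin genes and the VCP complex) was examined beside the members. All were tested. In Splice del cells 3 rose and 12 fell, in C321fs 3 rose and 11 fell, and in A333fs cells 5 rose and 9 fell, with medians of -0.13, -0.053 and -0.0081. Of all tested genes, 18.7% rose and 22.4% fell, 16.1% and 20.7%, and 21% and 26.4% in the same order. NFE2L1, the activator of proteasome genes, was at 358, 372 and 337 CPM in control, 319.6, 319.9 and 337 with Splice del, 289, 283 and 299.8 with C321fs and 306, 298 and 323 with A333fs. Its log2 fold change was -0.13 in Splice del (adjusted p = 0.0511), -0.29 in C321fs (adjusted p = 0.000365) and -0.20 in A333fs cells (adjusted p = 0.00381), and with the trend removed it passed in C321fs cells alone (-0.18, adjusted p = 0.00108). ADRM1, a ubiquitin receptor of the base, was at 285, 334 and 299 CPM in control, 195, 199 and 211 with Splice del, 259, 225 and 216 with C321fs and 214, 211 and 209 with A333fs. ADRM1 fell in all 3 lines (-0.60, -0.39 and -0.53), by over 1.5-fold in Splice del cells, and with the trend removed by less (-0.37, -0.21 and -0.13). With the trend removed, 1 gene of the list rose and 20 fell in Splice del, 1 rose and 17 fell in C321fs, and 1 rose and 13 fell in A333fs cells, beside 11.7% and 28.7%, 8.91% and 23.5%, and 9.78% and 21.8% of all genes.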

How the data were processed

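RNA of 4 T47D lines with 3 libraries each was analysed, and the ChIP-seq samples among the 27 of the series were not analysed here. The deposited values were raw fragment counts per gene, which the authors made with featureCounts v1.6.4 (paired-end, strand not used) on hg38 after trimming with Trimmomatic. The submitters' processing notes name HISAT2 and the file header paths name STAR, so the aligner was not settled. Library totals ran from 27872208 to 36788024 counts.

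All 26485 genes entered edgeR 4.0.16 (R 4.3.3, limma 3.58.1): filterByExpr by line (14789 genes kept), TMM, 1 coefficient per line over all 12 libraries, quasi-likelihood tests and Benjamini-Hochberg adjustment over all genes tested, with calls at an adjusted p below 0.01 or at that and a fold change over 1.5. The standard error is the log2 fold change divided by the square root of its F. FPKM divide the scaled CPM by exon length, for PSMB3 that of 1 locus. GC content came from the hg38 reference and exon length from the count file. The trend of each library was a loess (span 0.3) on genes outside the list, entered as offsets. PSMB3 entered it with the file's length of 1592 bases, which counts the alternate contig, beside 796 at 1 locus. Fits were tested on simulated data. The alternatives were RLE, upper-quartile or no factors, other filters, 2 lines alone, DESeq2 1.42.0, a replicate block, the trend removal and each library left out.

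The members and lists were chosen with earlier results of these data known. Genes were named if they passed both thresholds in any comparison, had the 2 lowest F-test p-values of their class, were PSMB5, PSMB6, PSMB7 or PSMB10, or had the highest or lowest fold change in a mutant line, which gave 17. Of the other pathway genes those past both thresholds and NFE2L1 were to be named, and 1 result is not reported here. PSMB8 and PSMB9 were left out by the rule. Pseudogenes are annotated for 17 members, among them PSMA2, PSMB3, PSMB7 and PSMG3, and the counting could split their fragments.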

Additional observations from a re-analysis of the deposited data

Results flagged for a closer look

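The effect of A333fs against control differed from that of another mutant line for 12 members, tested as the contrast between the mutant lines in edgeR's fit of all libraries (adjusted p below 0.01). These contrasts do not use the level of the control libraries. Above C321fs stood PSMC1 by 0.242, PSMD1 by 0.2693, PSMD5 by 0.1931 and PSMD10 by 0.2764 on the log2 scale. Above Splice del stood the core genes PSMA5 by 0.2589, PSMA6 by 0.2998, PSMA7 by 0.239, PSMB3 by 0.2583 and PSMB7 by 0.2811. The 19S genes PSMC1 by 0.3238, PSMC2 by 0.2407, PSMD1 by 0.2816, PSMD13 by 0.2642 and PSMD14 by 0.2699 and the chaperone gene PSMD5 by 0.2068 were also above Splice del. PSMC1, PSMD1 and PSMD5 differed from both lines. Thus 4 of the 44 tested members were above C321fs, beside 6.8% of all tested genes. Above Splice del were 11 of the 44, beside 4.63% of all tested genes. The calls depended on single libraries: with 1 library left out, 0 to 5 members were above C321fs and 1 to 24 above Splice del.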

How the results depend on the processing

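Of the values for single named genes, 1006 kept their direction and their side of the threshold, 46 lost and 12 gained the call, and 7 changed direction, of which PSMD5 in Splice del cells passed in the new direction. With the GC and length trend removed, PSMA4 in Splice del (-0.034), PSME4 in C321fs (-0.020), PSMD5 in Splice del (-0.16) and C321fs (-0.14) and PSMB10 in A333fs cells (0.20) changed direction, and PSMB10 also did with upper-quartile factors (0.0070) and library size alone (0.043). Of the summary values, 349 were stable and 70 moved.

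With upper-quartile factors, 9 members were higher in Splice del and 9 in C321fs, 11 lower in A333fs, and 20 higher in A333fs than in Splice del, with medians of -0.17, -0.064 and 0.051 against control. With library size alone 13 were higher in Splice del and 16 in C321fs, 10 lower in C321fs and 10 in A333fs, 1 lower in Splice del than in C321fs, and 6 higher in A333fs than in Splice del, with medians of -0.069, 0.017 and 0.086. With the trend removed 0, 0 and 2 were higher against control, 3 lower in Splice del than in C321fs, and 7 and 19 higher in A333fs than in C321fs and Splice del, with medians of -0.20 in C321fs and 0.14 between A333fs and Splice del. In fits of 2 lines alone 6 were higher in Splice del, and A333fs had 0 above C321fs and 26 above Splice del. With at least 10 counts in every library 8 were higher in C321fs, and without a filter A333fs had 7 above C321fs and 19 above Splice del. DESeq2 called 1 lower in Splice del than in C321fs, and 7 and 24 higher in A333fs than in C321fs and Splice del. At an adjusted p below 0.05, 8 were higher in Splice del and 8 in C321fs, 2 lower in Splice del than in C321fs, 12 higher and 1 lower in A333fs than in C321fs, and 26 higher than in Splice del. With a fold change over 1.5, 0 were higher in any comparison, and 3, 0 and 1 were lower against control. Where no share of all genes is given above for a setting, its counts have none to be read against. The cause was not tested.

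Leaving out 1 library at a time gave 1 to 4 members higher and 21 to 23 lower in Splice del, 3 to 8 and 16 to 22 in C321fs, and 10 to 16 and 13 to 19 in A333fs cells. The medians ran from -0.29 to -0.22, from -0.19 to -0.12 and from -0.095 to -0.0028 (without A333fs replicate 2; -0.012 without control replicate 2). Splice del had 0 to 1 below C321fs (1 without control replicate 2 or C321fs replicate 3), A333fs had 0 to 5 above and 0 to 1 below C321fs and 1 to 24 above Splice del, and the F-test called 32 to 41. The replicate numbers do not pair the libraries: over 18 pairs with the same number the mean correlation of the deviations was -0.0092 (-0.123 to 0.165). With the replicate block, 3 members were higher and 22 lower with Splice del, 5 and 19 with C321fs and 15 and 18 with A333fs, 4 were higher in A333fs than in C321fs and 8 than in Splice del, and the F-test called 36, so that no count moved by over 1.5 times.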

Other observations

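Among the 29 other genes of the pathway, NFE2L2, NGLY1 and VCP were singled out after their values had been seen. NFE2L2, the activator of the response to oxidative stress, was at 48.9, 54.3 and 56.3 CPM in control, 71.8, 74.4 and 66.4 with Splice del, 66.3, 77.6 and 72.7 with C321fs and 64.4, 79.9 and 62.6 with A333fs. It rose in all 3 lines (0.42, 0.44 and 0.38 on the log2 scale; adjusted p = 0.00109, 0.000897 and 0.00201 by edgeR), and once the GC and length trend was removed it passed in Splice del and C321fs cells but not in A333fs cells (0.25, adjusted p = 0.0108). NGLY1, the glycanase that processes NFE2L1, rose by 0.29, 0.29 and 0.57, and with the trend removed it passed in A333fs cells alone (0.26, adjusted p = 0.000341). VCP, the ATPase that extracts ubiquitinated proteins, fell by 0.46, 0.43 and 0.23, and with the trend removed it still passed in all 3 lines (-0.47, -0.40 and -0.20).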
